A study of Homo sapiens with 4 samples.

Results

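The promoters of the genes for cytoplasmic ribosomal proteins were followed through 4 ATAC-seq peak lists of MCF10A breast epithelial cells. The genes were chosen by symbol, as protein-coding genes named RPL or RPS with a number, plus RPSA, RPLP0, RPLP1 and RPLP2, on the autosomes and X. Kinase genes with symbols starting RPS6K and copies with an L after the number were left out. The rule found 77 of 20098 protein-coding genes, 46 of the large (60S) subunit and 31 of the small (40S) subunit. A promoter began 1000 bp before the 5′ end of the gene in GENCODE and ended 500 bp after it, and it counted as open in a library when a peak of that library overlapped it by at least 1 bp.

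ATAC-seq maps DNA that a transposase can reach, and a peak is a stretch with more insertions than its surroundings. MCF10A is an immortalized, non-tumorigenic human mammary epithelial line. The first group was parental MCF10A. The second, called G12V here, was MCF10A labelled H-RAS Gv12. An HRAS V12 expression vector had been brought into it with lentiviral particles, so that HRAS V12 is expressed from the vector. According to the study, a GFP vector was delivered as well, and hygromycin then selected for the HRAS vector. No vector control is labelled among the 4 libraries. Both groups were grown in the same medium with EGF, insulin, hydrocortisone, cholera toxin and horse serum, for few passages, and no clone was named for the G12V cells. Each group had 2 replicates, so that 2 libraries stood against 2, and an exact two-sided permutation test over the libraries cannot give a p below 0.333. A difference between groups was therefore set against the spread of the replicates.

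The lists differed much in length. They held 12902 and 34484 peaks for MCF10A replicates 1 and 2, and 14057 and 46698 for G12V replicates 1 and 2, and the number of reads behind them is unknown here. Within each cell type replicate 2 was the longer list, and the length of a list limits the counts below. Of 8 epithelial marker genes, only KRT8 had a promoter peak, in G12V replicate 2 alone and at percentile 1.57 of that list, while CDH1, EPCAM, GRHL2, KRT18, KRT19, KRT5 and TP63 had none at the gene start. EPCAM had a peak in 1 library at the start of its canonical transcript. Of 4 blood cell genes, CD3E, PTPRC and SPI1 among them, 0 had one, and of 3 fibroblast genes only COL1A1 had one, in MCF10A replicate 2. The labelled epithelial type could thus not be read from these promoters.

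Ribosomal proteins are made in equal amounts and assemble with ribosomal RNA in the nucleolus, so their genes are among the most highly transcribed of a growing cell. Their promoters usually lack a TATA box, lie in GC-rich DNA and carry sites for general factors, such as those of the ETS family, YY1 and SP1. Transcription starts at a C inside a run of pyrimidines. The mRNA then begins with a 5′ terminal oligopyrimidine (TOP) tract, through which mTOR signalling controls its translation.

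The start sites of the 7 genes with a promoter peak in all 4 libraries are shown first, since their peaks were found in the short lists as well as in the long ones. Each line runs 5′ to 3′ from 80 bases upstream of the start of the canonical transcript into its first 20 bases, in hg19. Capitals mark a C followed by at least 4 pyrimidines, with the rest of its run. Of such C within 10 bp of the start, the nearest to it was taken.
RPS13, chr11:17099195-17099294, minus strand: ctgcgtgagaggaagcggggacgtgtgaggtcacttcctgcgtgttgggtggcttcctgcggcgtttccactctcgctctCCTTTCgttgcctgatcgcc
RPS6, chr9:19380215-19380314, minus strand: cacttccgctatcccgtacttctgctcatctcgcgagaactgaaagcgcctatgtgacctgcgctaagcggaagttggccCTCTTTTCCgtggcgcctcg
RPL37, chr5:40835305-40835404, minus strand: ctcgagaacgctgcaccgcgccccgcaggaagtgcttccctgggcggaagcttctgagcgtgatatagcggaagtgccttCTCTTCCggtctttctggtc
RPS3A, chr4:152020700-152020799, plus strand: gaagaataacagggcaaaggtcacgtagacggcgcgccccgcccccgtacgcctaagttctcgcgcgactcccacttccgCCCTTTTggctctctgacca
RPS27A, chr2:55459744-55459843, plus strand: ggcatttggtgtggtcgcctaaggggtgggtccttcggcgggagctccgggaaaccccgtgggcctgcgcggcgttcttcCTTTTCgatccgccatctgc
RPL27A, chr11:8704259-8704358, plus strand: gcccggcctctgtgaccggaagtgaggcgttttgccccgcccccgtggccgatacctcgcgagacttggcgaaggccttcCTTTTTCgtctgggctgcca
RPL14, chr3:40498750-40498849, plus strand: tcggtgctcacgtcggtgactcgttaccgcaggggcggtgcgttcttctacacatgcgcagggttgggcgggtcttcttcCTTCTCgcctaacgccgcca

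For contrast, these are the first 6, by order of symbol, of the members that had no peak in any library at either start site considered below, written the same way.
RPL10A, chr6:35436098-35436197, plus strand: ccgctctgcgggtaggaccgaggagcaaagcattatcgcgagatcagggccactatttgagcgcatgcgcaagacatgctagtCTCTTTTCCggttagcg
RPL11, chr1:24018216-24018315, plus strand: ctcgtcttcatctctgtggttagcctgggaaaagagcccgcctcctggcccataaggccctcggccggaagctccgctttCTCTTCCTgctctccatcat
RPL18, chr19:49122416-49122515, minus strand: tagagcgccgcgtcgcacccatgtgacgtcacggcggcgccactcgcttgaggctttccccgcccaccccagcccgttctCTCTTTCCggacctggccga
RPL19, chr17:37356456-37356555, plus strand: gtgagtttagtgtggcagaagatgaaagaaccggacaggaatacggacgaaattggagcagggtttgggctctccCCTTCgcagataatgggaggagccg
RPL23, chr17:37009955-37010054, minus strand: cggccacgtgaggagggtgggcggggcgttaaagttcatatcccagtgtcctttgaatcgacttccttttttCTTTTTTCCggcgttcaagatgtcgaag
RPL29, chr3:52029892-52029991, minus strand: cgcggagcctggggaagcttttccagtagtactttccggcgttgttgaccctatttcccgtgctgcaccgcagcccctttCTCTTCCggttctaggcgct

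A pyrimidine run was marked in all 13 of these sequences. The first marked C lay exactly at the annotated start in all 7 of the first set, and in RPL11, RPL18 and RPL29 of the second. It lay 3 bp after the start in RPL10A, 5 bp before it in RPL19 and 8 bp before it in RPL23. Because the C nearest to the start was marked, it need not be the 5′ end of the pyrimidine tract. The base before it was also a pyrimidine in all sequences but that of RPS3A.

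Over all 77 genes, a C followed by at least 4 pyrimidines stood exactly at the canonical start in 58 (75.3%), against 4.56% of all protein-coding genes, and within 10 bp of it in 73 (94.8%), against 33.5%. Those without one included RPL17, RPL27 and RPS4X. In the 250 bp before to 50 bp after the start, on either strand, the ETS letters CCGGAAG stood in 27 members (35.1%, all promoters 14.0%) and the YY1 letters ATGGCG in 25 (32.5%, all promoters 14.5%). The NRF1 letters TGCGCA stood in 16 (20.8%, all promoters 10.8%). The SP1 letters GGGCGG were about as frequent in members (59.7%) as in all promoters (61.0%), and so were CCAAT (33.8% against 35.9%) and the E-box CACGTG (6.49% against 8.74%). TATAAA, sought on the coding strand from 40 to 20 bp upstream, was found in RPLP0, RPS2 and RPS28 (3.90%), with 3.89% over all promoters. None of these strings contains another, although CCAAT and the rest may overlap at their ends. Members had a median GC content of 59.3% and a ratio of observed to expected CpG of 0.92, against 63.7% and 0.77 for all promoters. By a GC content of at least 50% and a ratio of at least 0.6, 68 members (88.3%) were high-CpG promoters, compared with 65.1% of all. High-CpG promoters are therefore given as a second background.

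In MCF10A replicate 1, 17 of the 77 promoters had a peak (22.1%, 95% Wilson interval 14.3 to 32.5%), and percent called over all protein-coding promoters was 20.4. In MCF10A replicate 2 it was 44 (57.1%, 46.0 to 67.6%), with 41.1 over all promoters. G12V replicate 1 had 20 (26.0%, 17.5 to 36.7%) against 22.2, and G12V replicate 2 had 49 (63.6%, 52.5 to 73.5%) against 43.8. Ribosomal protein promoters thus stood above the background share in the 2 long lists, and the intervals, which cover counting error only, spanned it in the 2 short ones. Among high-CpG promoters alone the members had 16, 40, 20 and 45 peaks of 68 in the same order of libraries, and percent called in that class was 27.9, 55.6, 30.4 and 58.5. The members' shares of that class were 23.5, 58.8, 29.4 and 66.2%, and their Wilson intervals (15.03 to 34.9, 47.0 to 69.7, 19.9 to 41.1 and 54.3 to 76.3%) spanned the share of the class in all 4 libraries.

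**Figure D1:**
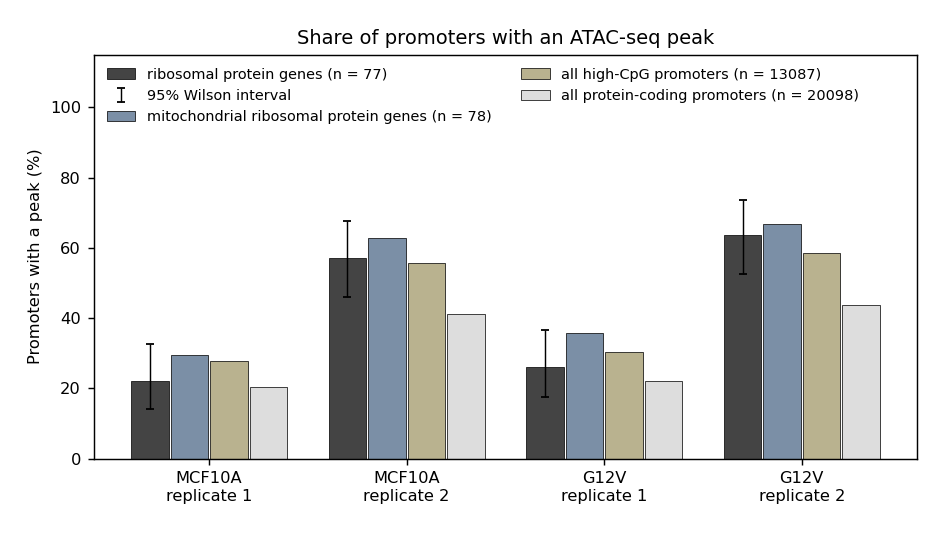
The vertical axis gives the percent of promoters with a peak in each library for the 77 ribosomal protein genes (bars with 95% Wilson intervals), 78 mitochondrial ribosomal protein genes, 13087 high-CpG promoters and 20098 protein-coding promoters. In the 2 replicate 2 libraries the ribosomal protein genes reached 57.1% and 63.6%, above all promoters (41.1% and 43.8%) and near the high-CpG class.

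By group, the number of open ribosomal protein promoters was 30.5 ± 19.1 in MCF10A and 34.5 ± 20.5 in G12V (SD, n = 2). The difference of 4 was far smaller than the spread within either cell type. It was 3 between the replicate 1 libraries and 5 between the replicate 2 libraries. The share of all promoters with a peak was also higher in G12V, by 2.23 percentage points. When each list was limited to its best 12888 peaks, the members numbered 17 and 24 in MCF10A and 20 and 19 in G12V, and the difference changed sign to -1. These were 22.1, 31.2, 26.0 and 24.7% of the members, against 20.4, 25.9, 21.4 and 24.9% of all promoters, so that the excess in G12V replicate 2 was not seen at this list length.

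At least 1 library had a peak at 56 of the 77 promoters (72.7%), with percent called 49.7 over all promoters, and 21 (27.3%) had none, with 50.3 over all promoters and 34.4 over high-CpG promoters. A peak in all 4 libraries was found at 7 (9.09%, Wilson interval 4.5 to 17.6%), with 13.6 over all promoters and 18.9 over high-CpG promoters. The shares at both ends were below the background, and 49 members lay between, but the interval for all 4 libraries spanned the 13.6 of all promoters. Among the 68 high-CpG members, 7 (10.3%, Wilson interval 5.08 to 19.8%) were open in all 4 and 17 (25%, 16.2 to 36.4%) in none. At the gene start both of these intervals spanned the share of the high-CpG class. At the start of the canonical transcript, 7 (10.3%, 5.08 to 19.8%) were open in all 4, and the class share of 21.2% lay above that interval. There 14 (20.6%, 12.7 to 31.6%) were open in none, and the interval spanned the class share of 28.6%. With the best 12888 peaks of each list 6 members (7.79%) were open in all 4, against 11.8% of all promoters.

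Of the 7 genes open in every library, 4 encode proteins of the small subunit and 3 of the large subunit. RPS6, the substrate of the S6 kinases, had its peak at percentile 63.5 and 73.2 in MCF10A replicates 1 and 2 and at 98.3 and 92.1 in G12V replicates 1 and 2, where the percentile is the rank of the peak's score among all peaks of its own list and 100 is the best. Both G12V values lay above both MCF10A values. RPS13 was at 72.0, 86.1, 89.03 and 85.0 in that order of libraries, and the 2 groups overlapped. RPS27A, which is translated as a fusion with ubiquitin, was at 35.8, 76.9, 85.6 and 79.0, with both G12V values above both MCF10A values. RPS3A was at 40.3, 67.7, 48.0 and 88.7.

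In the full lists, all 7 genes of this set had their lowest percentile in MCF10A replicate 1. Of the large subunit genes, RPL37 was at 41.5, 89.4, 76.7 and 76.4. RPL27A was at 9.27, 74.1, 69.5 and 78.7, and RPL14 at 8.46, 78.5, 42.0 and 66.3. Groups overlapped for all 3. In the full lists, 2 of the 7 genes thus had both G12V percentiles above both of MCF10A and 0 had both below. Percent called among the 2730 promoters with all 4 peaks was 13.6 and 5.93. RPL27A and RPL14 had weak peaks in MCF10A replicate 1 and rather strong ones in the other replicate of the same cells.

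The 49 genes open in 1 to 3 libraries fell into several patterns. A peak in both replicate 2 libraries and neither replicate 1 library was found at 10 (all promoters, 10.9 percent called), among them RPL7, RPL39 and RPLP0. A peak in every library except MCF10A replicate 1 was found at 10 (RPL15, RPL28, RPL34, RPL5, RPL9, RPS14, RPS24, RPS4X, RPS7 and RPSA, with 6.82 over all promoters), and in every library except G12V replicate 1 at another 10 (among them RPL31, RPL35A, RPL6, RPLP2, RPS12, RPS19, RPS20, RPS23 and RPS29, with 4.92 over all promoters). A peak in only 1 library was found at 16 (11 over all promoters), always a replicate 2 library. These included RPL13, RPL17, RPL21, RPL27, RPLP1, RPS2, RPS25 and RPS3 in G12V replicate 2 (10 members, with 6.02 over all promoters), and RPL12, RPL13A, RPL23A, RPL8, RPS28 and RPS9 in MCF10A replicate 2 (6 members, with 4.06 over all promoters). RPS18 had peaks in MCF10A replicate 2 and G12V replicate 1, and RPL24 and RPS26 in both G12V libraries.

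All 17 members with a peak in MCF10A replicate 1 also had one in replicate 2, and so did 19 of 20 in G12V, RPS18 being the exception. In MCF10A replicate 2 the peaks of those 17 had a median percentile of 78.5, compared with 58.7 for the 27 found in replicate 2 alone. In G12V replicate 2 the medians were 78.7 for the 19 and 46.3 for the 30 found in replicate 2 alone. Across cell types, 7 members were open in both short lists, which is 41.2% of those in MCF10A replicate 1 and 35% of those in G12V replicate 1, whereas over all promoters the shared 2781 were 67.9% and 62.4%. Over all promoters the share open in both short lists was 13.8 percent called. The 2 long lists shared 37 members, 84.1% of those in MCF10A and 75.5% of those in G12V, with 88.0% and 82.6% over all promoters.

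**Figure D2:**
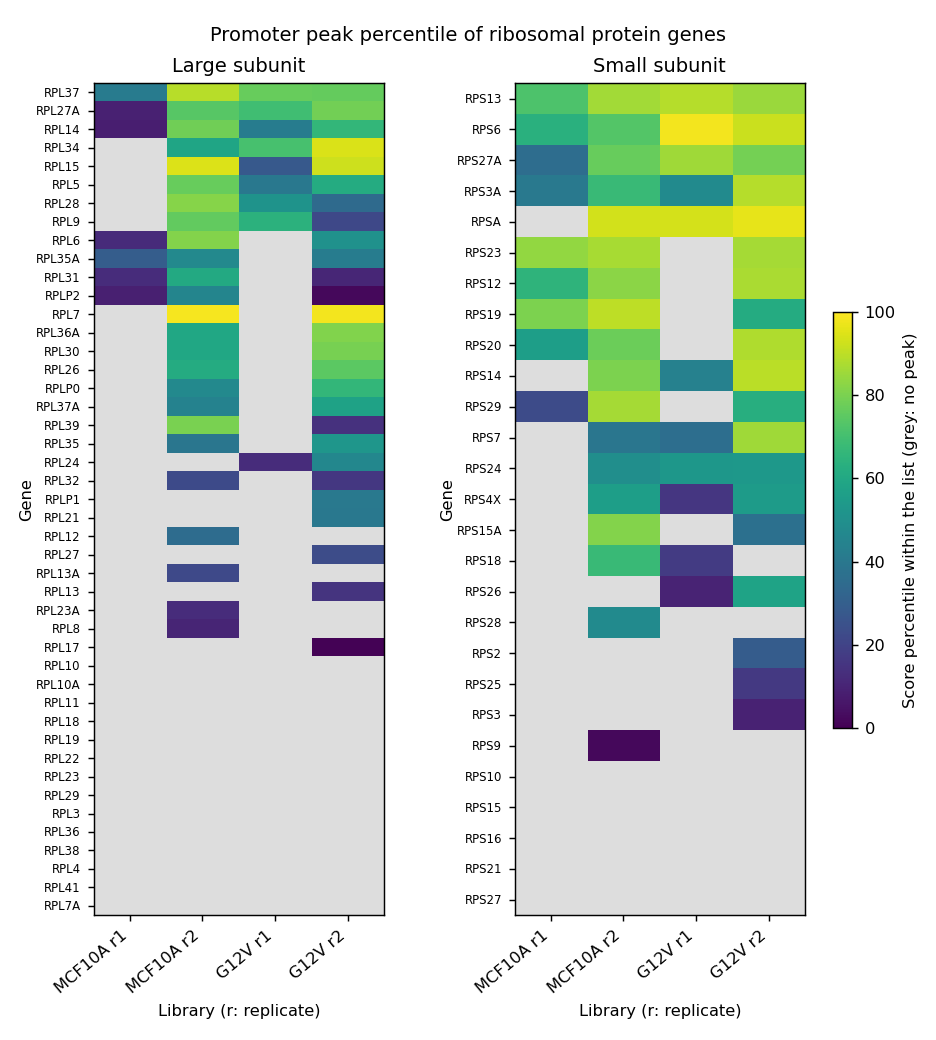
Each row is a ribosomal protein gene, without a few that are not reported here, and each column a library, and colour gives the percentile of the promoter peak's score within its list, with grey for no peak. Rows are ordered by the number of libraries with a peak, from the 7 genes open in all 4 at the top of the 2 panels to the genes open in none, in grey, at the bottom.

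Several of the genes best known for roles outside or at the edge of the ribosome lay in the middle classes. RPSA, a small subunit protein also described as a laminin receptor, had no peak in MCF10A replicate 1 but was at percentiles 93.0, 93.7 and 96.3 in MCF10A replicate 2 and G12V replicates 1 and 2. These were among the best member peaks of each list. RPS19, the gene most often mutated in Diamond-Blackfan anemia, was at 80.4 and 90.1 in MCF10A and had no peak in G12V replicate 1 and 61.6 in G12V replicate 2. RPS14, whose loss on 5q is tied to a myelodysplastic syndrome, had no peak in MCF10A replicate 1 and was at 80.1 in replicate 2, with 43.9 and 89.6 in G12V.

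RPL5 and RPL11 bind the 5S ribosomal RNA together and can hold back MDM2. RPL5 had no peak in MCF10A replicate 1 and was at 76.7, 40.1 and 61.6 in the other three, and RPL11 had none in any library. The stalk proteins RPLP0, RPLP1 and RPLP2 recruit elongation factors. RPLP0 had peaks only in the replicate 2 libraries, at 47.1 in MCF10A and 66.2 in G12V. RPLP1 had only one, at 40.6 in G12V replicate 2. RPLP2 was at 8.66 and 45.6 in MCF10A and at 2.11 in G12V replicate 2, with none in G12V replicate 1.

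Gained promoters, those open in each G12V library but in no MCF10A library, were 2 of 77, RPL24 and RPS26, with percent called 0.856 over all promoters. Lost promoters, those open in each MCF10A library but in no G12V library, were 0 of 77, which allows a share of up to 3.90%, with 0.517 over all promoters. RPL24, a large subunit protein that bridges to the small subunit, had peaks at chr3:101405513-101405887 in G12V replicate 1 and chr3:101405502-101406000 in replicate 2, over its start on the minus strand. Their percentiles were 12.5 and 46.2. RPS26, a small subunit protein near the mRNA exit, had peaks at chr12:56435297-56435710 and chr12:56435314-56435854, over its canonical start at 56435702 on the plus strand. Their percentiles were 9.83 and 57.8. Both peaks of G12V replicate 1 were thus low in their list. With the best 12888 peaks of each list neither gene remained gained. The gained genes were then RPL34 and RPS7, and 4 were lost, RPL6, RPS19 and RPS29 among them, with 1.12 and 1.3 percent called over all promoters in that setting, in each case because a peak of a replicate 2 library fell outside its best 12888.

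Member peaks were low among promoter peaks. Their median percentile was 40.3 in MCF10A replicate 1, 70.5 in MCF10A replicate 2, 49.6 in G12V replicate 1 and 61.6 in G12V replicate 2, while that of all promoter peaks was 64.8, 75.5, 68.1 and 78.1. The median of the members minus that of all promoters was -24.5, -4.97, -18.5 and -16.6 points, lower in all 4 libraries. The median of high-CpG promoter peaks was 65.3, 76.3, 68.9 and 79.2. That of the 78 mitochondrial ribosomal protein genes, at 45.5, 68.8, 53.7 and 72.0, was also below all promoter peaks in each library. The low rank was thus not particular to the members. A peak at or above percentile 90 of its list stood at 0, 4, 2 and 5 members (0, 5.19, 2.60 and 6.49%), compared with 4.16, 11.5, 4.69 and 13.1% of all promoters. With equal list lengths the medians were 40.3, 48.7, 45.1 and 50.5 for the members and 64.8, 68.5, 67.0 and 66.4 for all promoters.

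Between the cell types the median percentile of the members did not separate, at 55.4 ± 21.3 in MCF10A and 55.6 ± 8.46 in G12V (SD, n = 2). G12V minus MCF10A was 9.27 between the replicate 1 libraries and -8.95 between the replicate 2 libraries. The difference of the means, 0.164, turned negative under 3 alternatives for the window, the overlap or the percentile.

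**Figure D3:**
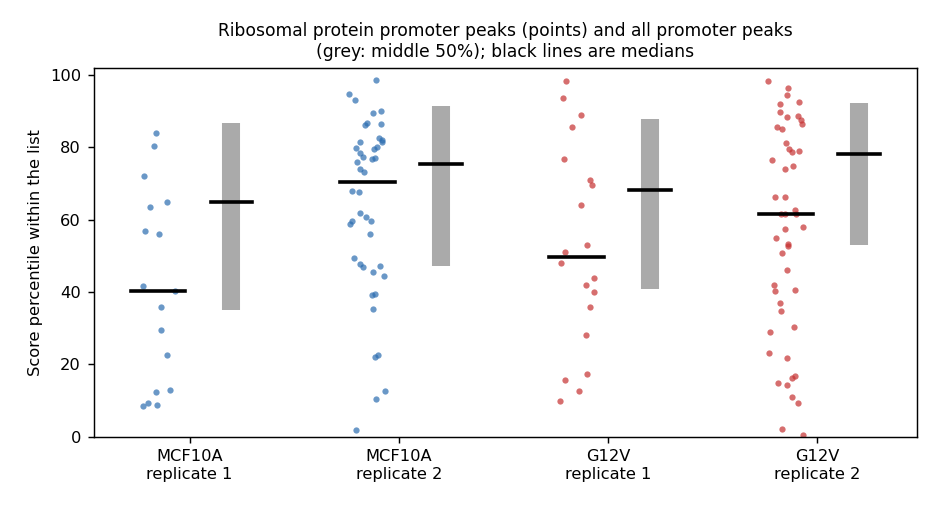
Points give the score percentile, within its own list, of each ribosomal protein promoter peak in the 4 libraries (blue MCF10A, red G12V, spread sideways at random), and grey bars the middle 50% of all promoter peaks, with medians as black lines. The member medians (40.3, 70.5, 49.6 and 61.6) lie below those of all promoters (64.8, 75.5, 68.1 and 78.1) in each library.

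The members were also divided by subunit. Of 31 small subunit genes 10, 19, 11 and 21 had a peak in MCF10A replicates 1 and 2 and G12V replicates 1 and 2, and of 46 large subunit genes 7, 25, 9 and 28. The shares were higher for the small subunit in each library, at 32.3, 61.3, 35.5 and 67.7% against 15.2, 54.3, 19.6 and 60.9%. The median percentile of small subunit peaks was 60.1, 77.4, 48.0 and 74.1, and that of large subunit peaks 12.3, 59.6, 51.2 and 48.5, so that the small subunit was higher in every library but G12V replicate 1. The difference between the subunits was not tested.

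Both replicate 2 libraries had a peak at 37 members (36.2 percent called over all promoters). The percentile was higher in G12V at 17 and higher in MCF10A at 20, with a median difference, G12V minus MCF10A, of -0.43 points. Over the 7270 promoters of all genes with both peaks it was higher in G12V at 4342 and in MCF10A at 2928, with a median of 1.48. Single members moved much more. The largest falls were at RPL39, from 79.9 in MCF10A to 14.3 in G12V, RPL9, from 75.8 to 21.7, and RPL31, from 60.8 to 10.9, and these encode proteins of the large subunit, RPL39 and RPL31 near the exit of the peptide tunnel. The largest rises were at RPS7, from 39.1 to 85.6, and RPL34, from 58.7 to 94.4. In replicate 1, RPS7, RPL34 and RPL9 had a peak only in G12V (36.0, 71.0 and 64.2), RPL31 only in MCF10A (12.8) and RPL39 in neither. The order of RPS7, RPL34 and RPL31 thus held in both replicates, and that of RPL9 did not. These 5 genes were picked by their values, and each value is a single library.

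**Figure D4:**
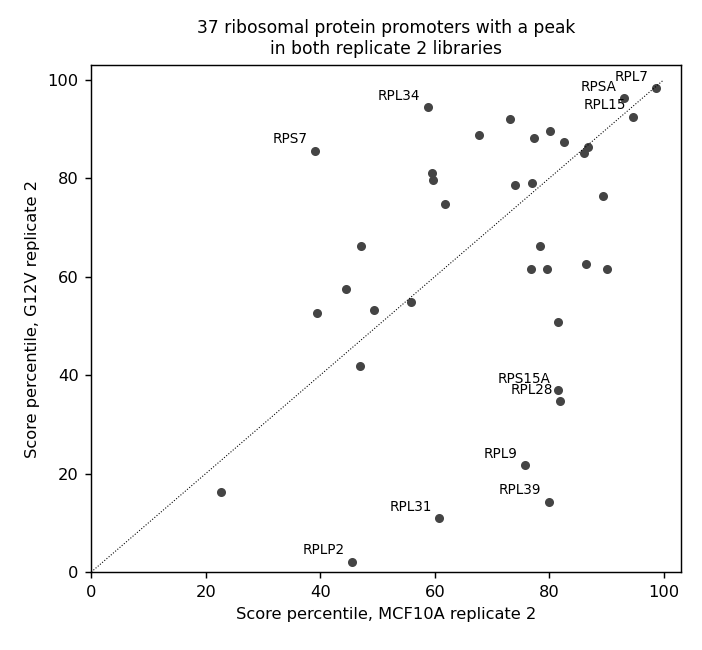
Each point is one of the 37 ribosomal protein promoters with a peak in both replicate 2 libraries, with its score percentile in MCF10A on the horizontal and in G12V on the vertical axis, and the dotted line marks equal values. Of the points, 17 lie above the line and 20 below, with RPL7 (98.7 and 98.4) at the upper right and RPL39 (79.9 and 14.3) far below it.

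The 5′ end of a gene is not always where most of its transcripts start. The canonical transcript started within 100 bp of the gene's 5′ end at 55 members and over 1000 bp from it at 7, RPL10, RPL22, RPL36, RPL4, RPL6, RPL7 and RPS29. With the canonical start, 18, 47, 21 and 51 members had a peak (22.2, 44.5, 24.2 and 47 percent called over all promoters), 7 were open in all 4 libraries (15 over all promoters) and 17 in none (46.9 over all promoters). The call changed at 6 genes. RPL10, which joins the large subunit late in its maturation, had no peak at its gene start but 28.4 and 65.9 in MCF10A and 2.01 in G12V replicate 2 at its canonical start. RPL22 had 46.5 and 84.0 in MCF10A and 69.6 in G12V replicate 2 there. RPL3 had one peak, at 7.07 in MCF10A replicate 2, and RPL4 one, at 43.4 in G12V replicate 2. RPL7 had a peak in G12V replicate 1 as well, at 84.6. RPL6 kept only the peak of MCF10A replicate 2, at 16.8, where its distant gene start had 12.3 and 81.6 in MCF10A and 50.8 in G12V replicate 2.

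The 17 members without a peak at either start included RPL10A, RPL11, RPL18, RPL19, RPL23, RPL29, RPL36, RPL38, RPL41 and RPL7A of the large subunit and RPS10, RPS15, RPS16, RPS21 and RPS27 of the small subunit. The nearest peak of any library was at least 1357 bp from the canonical start, with a median of 18120 bp, and it lay within 5000 bp only for RPL38, RPL41 and RPS27. For these genes no peak passed the caller's threshold, which does not show that their chromatin was closed. Because only uniquely placed reads were used, the share of 51-base stretches of each promoter, taken every 10 bp, that occur once in the genome was counted. The median over members was 98.6%. Over the 17 members without a peak at either start it was 95.2%, and 1 of them (5.88%) had under 50%. Over all promoters 726 (3.61%) had under 50%, and 707 of these had no peak. On chromosome 1, 4 of 5 members had no peak at the gene start, on chromosome 19 it was 4 of 12 and on chromosome 17 it was 3 of 6, while chromosomes 8 and 11 had 0 of 4 and 0 of 5. The shares of all promoters without a peak were 48.3, 57.9, 61.5, 47.7 and 57.3% on these chromosomes, in the order given. On chromosomes 2 and 3 it was 0 of 4 and 1 of 7 members, with 42.3 and 42.8% of all promoters. The chromosomes named are a choice among all, made without a rule, and the counts are small.

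Peaks lay over and just upstream of the canonical start. The start itself was covered in 10 of 18, 46 of 47, 18 of 21 and 47 of 51 members with a peak in MCF10A replicates 1 and 2 and G12V replicates 1 and 2 (55.6, 97.9, 85.7 and 92.2%), and in 72.2, 84.8, 72.6 and 87.7% of all promoters with a peak. The median position of the peak midpoint was -159, -112, -64.5 and -107.5 bp from the start, where minus means upstream, while over all promoters it was -81.5, -55.5, -103.5 and -61 bp. Member peaks had a median width of 401.5, 721, 444 and 586 bp, against 464, 745, 473.5 and 825 bp for all promoter peaks, narrower in all 4 libraries. At 500 bp downstream, members were covered less often than all promoters in all 4 libraries.

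**Figure D5:**
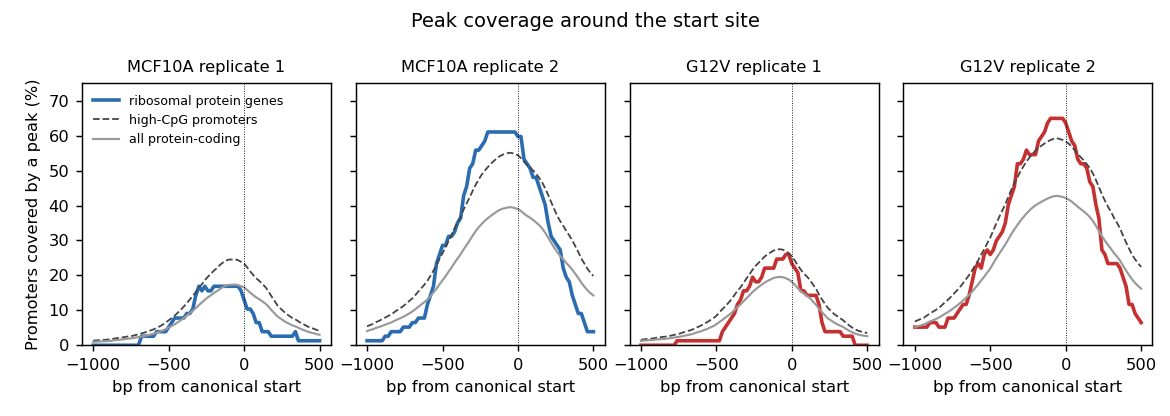
The vertical axis gives the percent of promoters covered by a peak at each distance (horizontal axis, bp) from the canonical start, for the 77 ribosomal protein genes (thick line), high-CpG promoters (dashed) and all protein-coding promoters (grey) in each library. In both replicate 2 libraries the member line rises above all promoters around the start, to 59.7% and 63.6% at the start itself, and falls below them by 500 bp downstream.

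The sequence features were read against the peaks as shares only. The features are those around the canonical start, whereas the peaks are those at the gene start. A C followed by at least 4 pyrimidines stood exactly at the start in 7 of 7 members open in all libraries, 38 of 49 open in some and 13 of 21 open in none. Among the 17 members without a peak at either start it stood in 11 (64.7%). Of the 58 members with it 45 had a peak in at least 1 library (77.6%), and of the 19 without it 11 did (57.9%), while over all promoters the shares were 55.9% and 49.4%. RPL10 and RPL22, with it, and RPL3 and RPL4, without it, had a peak only at the canonical start and count here as having none. Members with the ETS letters had a peak in at least 1 library in 70.4% of cases and members without them in 74.0%. Over all promoters these shares were 72.1% and 46.0%, so that members lacking the letters were marked more often than other promoters lacking them. CCAAT stood in 1 of 7 members open in all libraries, 21 of 49 open in some and 4 of 21 open in none (14.3, 42.9 and 19.05%), and in 47.3, 35.6 and 33.0% of all promoters in these classes. A protein-coding gene on the other strand started within 1000 bp upstream of 13 members (16.9%, all promoters 9.38%), among them TRIM66 at RPL27A and CLHC1 at RPS27A, and a peak there cannot be assigned to one gene of the pair. No peak was shared by 2 members.

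Ribosomal protein genes have many retrocopies, processed pseudogenes made from their mRNAs. GENCODE lists 1584 pseudogenes named for the 77 members, and 6, 25, 10 and 34 of them had a peak at their start in the 4 libraries (0.379, 1.58, 0.631 and 2.15%). In at least 1 library it was 44 (2.78%), against 4.11% of 13416 other pseudogenes.

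Other gene sets, of translation, ribosome biogenesis and the proteasome, were taken for comparison. The 78 mitochondrial ribosomal protein genes, which serve translation inside mitochondria, had 23, 49, 28 and 52 peaks, with 16 open in all 4 libraries (20.5%, against 9.09% of the cytoplasmic set), 18 in none, 2 gained and 0 lost. The median percentile of their peaks was 45.5, 68.8, 53.7 and 72.0. The 40 genes with symbols PSMA, PSMB, PSMC or PSMD and a number are mostly proteasome subunit genes. PSMC3IP, which had no peak, is among them but is not a subunit. The set had 8, 28, 15 and 26 peaks, with 7 open in all 4 libraries, 8 in none, 1 gained and 0 lost. The median percentile of these peaks was 69.9, 69.9, 36.6 and 70.0. Of 14 translation factor and other genes whose mRNAs carry a TOP tract, 7, 10, 9 and 9 had a peak, and EEF1B2, EEF1G, EIF3E, EIF3H, NPM1 and PABPC1 were open in all 4. Their median percentile was 78.7, 92.2, 86.3 and 96.9, above that of the ribosomal protein genes in each library, although EEF1A1, EEF1D, EEF2 and EIF3F had no peak at the gene start. The percentiles are those at the gene start, which lay many kb from the canonical start in EIF3E and EIF3H. The values of EIF3E and EIF3H in this median are thus not those of their canonical starts. At the canonical start EIF3F was open in 4 libraries, EEF1A1 and EIF3E in 3, and EEF1D and EIF3H in 2. Of 24 ribosome biogenesis genes 6, 16, 10 and 18 had a peak, with 4 open in all 4 libraries, 6 in none (5 at the canonical start), and only BYSL gained at the gene start.

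Copies of the members outside the rule varied as widely. RPL22L1 and RPL36AL, expressed paralogs, were open in all 4 libraries, at 77.7, 69.0, 84.9 and 92.5 and at 88.3, 91.4, 71.7 and 87.6, higher than most of the 77. RPL10L, RPL39L and RPL3L, known for expression in testis or muscle, had no peak in any library. RPS27L and RPL7L1 had one only in G12V replicate 2, at 40.2 and 24.1, and RPL26L1 one in each replicate 2 library, at 7.07 and 40.8, while at its canonical start it was open in all 4 libraries. Of the ribosomal proteins with other symbols, FAU had a peak only in MCF10A replicate 2, at 5.30, and RACK1 had none at its gene start but a peak in 3 libraries at its canonical start.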

How the data were processed

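Peak lists of 4 ATAC-seq libraries, 2 biological replicates each of MCF10A and G12V cells, were used. According to the methods of the study, the authors used bowtie with hg19, kept uniquely placed reads, shifted them for the transposase and ran MACS (tsize 51, shiftsize 75, llocal 25000, peaks kept at p up to 0.0001). The deposited lists hold coordinates and the score of each peak from MACS, a log10-scaled p-value multiplied by -10. Read depth is not in the lists. Scores were used only as percentiles within a list (autosomes and X), because they rise with depth.

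Gene starts were taken from GENCODE release 44 on GRCh37 (0 peaks ended past a chromosome end), and sequences from the GRCh37 genome. Calls, shares and medians were computed in Python 3.11.15 with numpy 2.4.6, pandas 2.3.3 and scipy 1.17.1, and figures with matplotlib 3.10.9. Where several peaks overlapped a promoter, the one with the best score was taken. Percent called is the share of all 20098 promoters, or of those in a stated class, that meet the same rule. The overlap step was tested on simulated peaks and found 100% of the planted promoters, with 0% false calls. Wilson intervals (95%) cover counting error only, and the limit for a count of 0 is 3 counts.

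The members and gene lists were chosen with earlier results of these data known, and lists are described by counts and medians with no test. Members named with values are those gained or lost, those open in all 4 libraries, members without a peak, and RPL5, RPL10, RPL11, RPLP0, RPLP1, RPLP2, RPSA, RPS6, RPS14 and RPS19 for their roles. The members named in the comparison of the replicate 2 libraries or of start sites, and the other genes, were named after their values were seen. Alternatives were the start site, a window of 250 bp before to 50 bp after it, a minimum of 50% of the peak, the better 50% of each list, equal list lengths, percentiles among promoter peaks, and leaving out each library. High-CpG promoters as a second background were added after the data were seen. The results of a few genes are not reported here, although they stay in all counts.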

Additional observations from a re-analysis of the deposited data

How the results depend on the processing

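Read depth is unknown, and the list lengths limit every count. The difference of 4 members between G12V and MCF10A became -1 with equal list lengths and ranged from -10.5 to 18.5 when 1 library was left out, turning negative without MCF10A replicate 1 or G12V replicate 2. The difference of the median percentile became -8.24 with the window of 250 bp before to 50 bp after the start, -1.47 with at least 50% of the peak in the window and -4.87 with percentiles among promoter peaks, and ranged from -14.9 to 15.3 with 1 library left out. Members open in all 4 libraries were 2 with the better 50% of each list and 7 to 17 with 1 library left out (17 without either replicate 1 library). Gained members were 1 with the narrow window, 1 with the better 50% and 2 to 12 with 1 library left out (12 without MCF10A replicate 2 or G12V replicate 1). Lost members were 4 with equal list lengths and 0 to 10 with 1 library left out (6 without MCF10A replicate 1, 10 without G12V replicate 2). Members without a peak were 40 with the better 50% of each list, 40 with equal list lengths, and 21 to 31 with 1 library left out (27 without MCF10A replicate 2, 31 without G12V replicate 2). Leaving out a library or shortening a list changes these counts by construction, and the cause of the other shifts was not tested. In high-CpG promoters alone, added after the data were seen, 7 members were open in all 4 libraries and 17 in none.

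Replicate numbers are shared by the groups, but the labels do not say that a number marks a batch or day. With the number as a block the differences were 4 members and 0.164 percentile points, as without it. Paired by number, 13 members had a peak only in G12V and 10 only in MCF10A in replicate 1, and 12 and 7 in replicate 2. These were 16.9, 12.99, 15.6 and 9.09% of the members, against 8.33, 6.55, 7.60 and 4.92% of all promoters. Over the 2730 promoters with a peak in all libraries the deviations of same-numbered libraries from their group means correlated at 0.150, over 2 pairs.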
